A study of Mus musculus with 6 samples.

Results

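The adrenomedullin system was examined as 6 genes of the 56748 in the deposited count table: the peptide gene Adm and the 5 receptor genes Calcrl, Ramp1, Ramp2, Ramp3 and Ackr3. Each gene name had a single row. The set was chosen by the values of this same experiment, because Adm and Ramp2 stood out in the comparison of knockout with control mice, and the other 4 genes were added by their known place in the receptor system. The knockout comparison of these genes is therefore a description: fitted estimates, their intervals and counts of calls are printed for it, and none of them serves as an independent test.

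Endothelial cells (ECs) were sorted from spinal cords of P16 mice on the C57BL/6 background, with 3 mice and 3 libraries per group. Control mice carried the floxed Tardbp gene (genotype Tardbpflox) and no Cre, and TDP-43iΔEC mice (genotype Cdh5(PAC)-CreERT2;Tardbpflox) carried in addition a tamoxifen-inducible Cre under the Cdh5 promoter, which is active in endothelium. All 6 mice received tamoxifen from P5 to P7, so that Cre and the loss of Tardbp, which encodes the RNA-binding protein TDP-43, separated the groups, and Cre alone was not controlled for. Libraries were made with SMARTseq2, a protocol that amplifies cDNA from very little RNA and, as described, used no molecular identifiers. Counts summed to 25704871 to 47270654 per library, with TDP-43iΔEC mice 2 and 3 the shallowest, and 3 counts corresponded to 0.0617 to 0.116 CPM, the count scaled to the size of its library.

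Adrenomedullin is a small vasoactive peptide that ECs both secrete and sense. Its receptor is a pair of proteins: the G protein-coupled receptor CALCRL, and a single-pass partner of the RAMP family that carries CALCRL to the cell surface and sets its ligand. CALCRL with RAMP2 or RAMP3 binds adrenomedullin, and CALCRL with RAMP1 binds calcitonin gene-related peptide. Receptor activation raises cAMP in ECs, and the pathway is known for its part in vessel development and in keeping endothelial junctions tight. ACKR3 is an atypical receptor that takes up the chemokines CXCL12 and CXCL11 and also adrenomedullin. Adm transcription is known to respond to hypoxia-inducible factors (HIFs).

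Before the members, the libraries were checked against their labels. Tardbp was at 55.3, 61.9 and 58.5 CPM in control mice 1, 2 and 3, against 26.6, 16.1 and 11.8 CPM in TDP-43iΔEC mice 1, 2 and 3, on the TMM-scaled CPM scale used throughout. The whole gene was counted, and transcripts that lack the floxed exon still add to it. Endothelial markers summed to 9020 to 13200 CPM in all libraries, and the groups overlapped for the sum and for 4 of the 6 genes. The VEGF receptor genes Flt1 (1890 ± 132 against 1170 ± 58 CPM, adjusted p = 0.0635 in limma and 7.9e-06 in DESeq2) and Kdr (940 ± 114 against 778 ± 31.7 CPM, adjusted p = 0.575, limma) were lower in each TDP-43iΔEC mouse than in each control mouse (SD, n = 3 per group). Mural markers reached 978 CPM, oligodendrocyte markers 590 CPM, and fibroblast, astrocyte, neuron and microglial markers at most 29.5 CPM. Oligodendrocyte markers were at 53.9 and 14.7 CPM in TDP-43iΔEC mice 2 and 3, against 296 to 590 CPM in the other 4 mice. Erythroid markers ranged from 6930 to 10600 CPM in control mice and from 2030 to 2880 CPM in TDP-43iΔEC mice, lower for 5 of 5 genes. The lymphatic list was also lower, at 78.5 to 144 against 153 to 234 CPM, almost entirely through Flt4, and Lyve1 was at 0 in every library. The part of these differences in the results was not tested. In a bulk library of sorted cells, fewer cells of a type and less RNA per cell cannot be told apart.

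The ligand and most of the receptor genes stood on opposite sides. Adm was higher in each TDP-43iΔEC mouse than in each control mouse, Calcrl, Ramp2 and Ackr3 were lower in each, Ramp3 overlapped between the groups, and Ramp1 was close to undetected. Of the 5 members that passed the filter on low counts, 4 had groups that did not overlap, 1 higher and 3 lower, where 7.4% of the 13107 tested genes were apart in the higher direction and 7.93% in the lower. In limma, 1 member (Adm) had an adjusted p under 0.05, a call made for 0.137% of tested genes, 0.0305% higher and 0.107% lower. In DESeq2, 3 members (Adm, Ramp2 and Calcrl) passed the same threshold, against 1.97% of genes, and in edgeR's quasi-likelihood test 0 genes passed, while 848 had an unadjusted p under 0.05. Because this contrast chose the members, nothing is read from these counts.

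**Figure D1:**
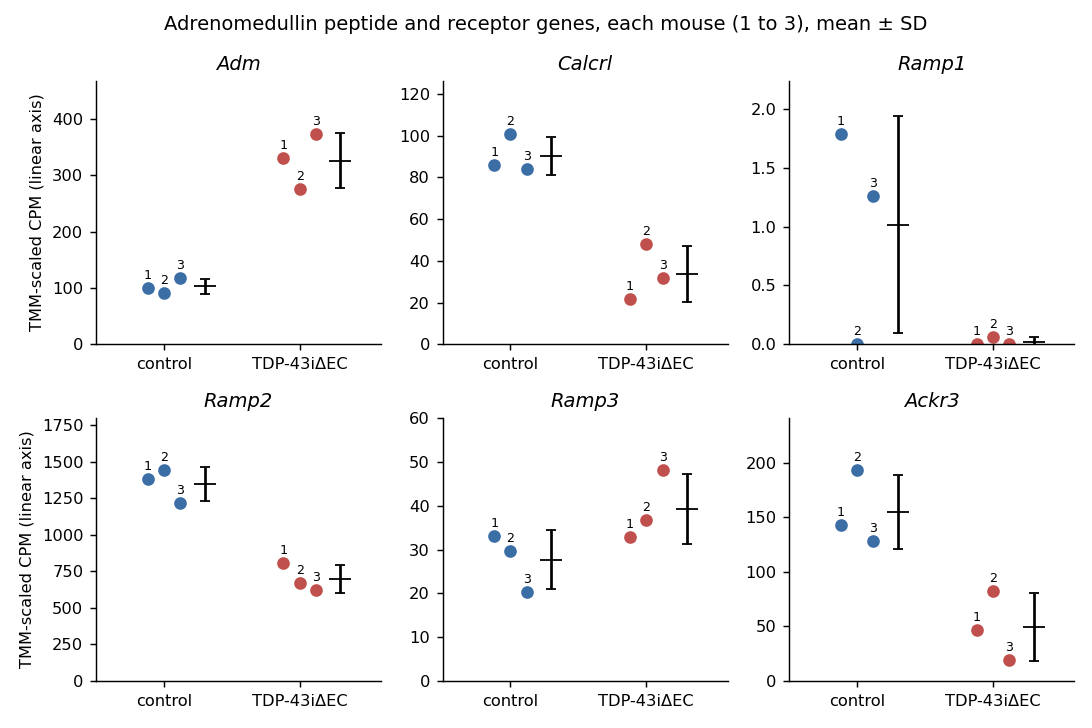
TMM-scaled CPM (linear axis, separate for each gene) of the 6 genes in control (blue) and TDP-43iΔEC (red) mice. Points are mice, numbered 1 to 3, and the bar beside them is the mean ± SD (n = 3). The groups do not overlap for Adm, Calcrl, Ramp2 and Ackr3.

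Adm (ENSMUSG00000030790.16), the peptide gene, lies at chr7:110226858-110229027 on the plus strand of GRCm39, and its canonical transcript has 4 exons. Its level was 99.7, 91.7 and 117 CPM in control mice 1, 2 and 3, and 330, 275 and 374 CPM in TDP-43iΔEC mice 1, 2 and 3. All 3 knockout values lay above all control values, and the lowest of them exceeded the highest control value by more than either group's spread. The means were 103 ± 13 and 326 ± 49.7 CPM (SD, n = 3 per group), a fitted log2 fold change of 1.66 with a standard error of 0.21 and a 95% interval of 1.18 to 2.13, or 3.15-fold. These values rest on raw counts from 3799 to 5111 in the control libraries and from 8565 to 16050 in the knockout libraries. An antisense long noncoding gene, Gm72687, overlaps 31.9% of the Adm exon sequence in GENCODE M39 and had no row of its own in the table used here. The counting is not described as using strand, so reads from that stretch cannot be told apart.

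The Adm promoter is shown because the gene is a known HIF target and because its level was higher in the knockout mice. The 100 bases before the start site, chr7:110226758-110226857 on the plus strand of GRCm39, hold 2 matches to the HIF core, in capitals. The core was searched as ACGTG or GCGTG on both strands, and here both matches are its reverse complement, CACGC, with first bases 84 and 48 bases before the start.
Adm, 100 bases before the start site: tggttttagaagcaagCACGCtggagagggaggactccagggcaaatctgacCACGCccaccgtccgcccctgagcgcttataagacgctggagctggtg
In the window from 250 bases before to 50 after the start site, 59.5% of the promoters of 13044 tested genes held this core at least once, so that its presence is common. Among the other members, Ramp3 had 2 matches, Ackr3 had 1, and Calcrl, Ramp1 and Ramp2 had 0. The Ramp2 window, chr11:101136474-101136773, was set by the start of its canonical transcript. The annotated start of the Ramp2 gene, at 101136358, lies upstream of that window and was not searched. The full cAMP response element, TGACGTCA, was in 0 of the 6 promoters and in 3.14% of all. Its shorter core TGACG, also searched on both strands and contained in the full element, was found in Ramp1 alone among the members and in 29.7% of all promoters.

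TDP-43 is known to bind UG-rich RNA, so uninterrupted TG repeats on the sense strand were located in each gene. Only the longest run of each member was placed within its transcript. The shorter runs of Calcrl, Ramp1, Ramp3 and Ackr3 were not placed. The Adm run of 40 bases, chr7:110228867-110228906 on the plus strand, is in the 3′ UTR of the canonical transcript. The longest run of each receptor gene is in an intron of its canonical transcript. For Ramp2 that transcript reads through into the neighbouring gene Vps25, described below. The 12 Ramp2 transcripts that end before Vps25 reach no further than chr11:101139077, so the Ramp2 run lies beyond them. The first 24 bases of the run are shown in capitals after the 6 bases before it, beside the longest runs of Ramp2 (24 bases, chr11:101139897-101139920, plus strand) and Calcrl (27 bases, chr2:84250706-84250732, minus strand, the first 24 bases shown).
Adm, 3′ UTR: ggttccGTGTGTGTGTGTGTGTGTGTGTGT
Ramp2, intron: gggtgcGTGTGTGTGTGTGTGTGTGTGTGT
Calcrl, intron: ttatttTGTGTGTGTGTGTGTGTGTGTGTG
The longest runs were 38 bases in Ramp1, 37 in Ramp3 and 20 in Ackr3, and Ramp3 held the most runs of at least 12 bases, 12 in all. Such runs are frequent: 66.1% of 13044 tested genes held a run of at least 12 bases anywhere in the gene and 50.5% one of at least 30. A run of at least 30 bases in the 3′ UTR was less frequent, in 389 of 11321 tested coding genes (3.44%). A match describes the letters of the reference genome and is not evidence of binding.

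Ramp2 (ENSMUSG00000001240.14) encodes the partner that makes CALCRL an adrenomedullin receptor, and its deletion in mice is known to impair vessels. It lies at chr11:101136358-101150419 on the plus strand. Ramp2 was at 1380, 1440 and 1220 CPM in control mice 1, 2 and 3, and at 804, 672 and 620 CPM in TDP-43iΔEC mice 1, 2 and 3. Every knockout value was below every control value. The means were 1350 ± 117 and 698 ± 94.8 CPM (SD, n = 3 per group), a fitted log2 fold change of -0.93 (SE 0.14, 95% interval -1.25 to -0.61), or 1.9-fold lower.

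A limit of the Ramp2 count is its neighbour. Of the 21 Ramp2 transcripts in GENCODE M39, 9, the canonical one among them, read through into Vps25. This gene, on the same strand, encodes a subunit of the endosomal sorting machinery. Its exons overlap 28.5% of the Ramp2 exon sequence. The deposited counts were made with GENCODE M30, whose Ramp2 transcripts were not examined. Vps25 was at 202, 292 and 227 CPM in the controls and at 120, 137 and 156 CPM in TDP-43iΔEC mice 1, 2 and 3, so that it was also lower in every knockout mouse, with a log2 fold change of -0.82 (SE 0.22; adjusted p = 0.319, limma). The ratio of Vps25 to Ramp2 counts was 0.178 ± 0.0294 in control and 0.202 ± 0.0511 in TDP-43iΔEC mice (SD, n = 3 per group), and it overlapped between the groups. How many counts the estimation moved between the neighbours cannot be told from gene totals.

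Calcrl (ENSMUSG00000059588.14), the receptor subunit shared by adrenomedullin and calcitonin gene-related peptide, lies at chr2:84160957-84255755 on the minus strand. Its level was 85.9, 101 and 84.2 CPM in control mice 1, 2 and 3, and 21.6, 48.2 and 31.9 CPM in TDP-43iΔEC mice 1, 2 and 3. The groups were apart, and mouse 2 was the highest of each. The means were 90.3 ± 9.09 and 33.9 ± 13.4 CPM (SD, n = 3 per group), a log2 fold change of -1.56 (SE 0.35, 95% interval -2.35 to -0.78), or 2.96-fold lower. The long noncoding gene Gm74802 lies on the opposite strand and shares no exon sequence with Calcrl.

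Ackr3 (ENSMUSG00000044337.6), the scavenging receptor, lies at chr1:90131689-90144473 on the plus strand. It was at 143, 193 and 128 CPM in control mice 1, 2 and 3, and at 46.3, 82.3 and 19.5 CPM in TDP-43iΔEC mice 1, 2 and 3. All knockout values were lower than all control values, but they spread more than 4-fold among themselves, with mouse 3 far below mouse 2. The means were 155 ± 34.1 and 49.4 ± 31.5 CPM (SD, n = 3 per group), a log2 fold change of -1.78 (SE 0.42, 95% interval -2.74 to -0.83). Without TDP-43iΔEC mouse 3, the log2 fold change was -1.36.

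Ramp3 (ENSMUSG00000041046.8), the other adrenomedullin receptor partner, lies at chr11:6608511-6627475 on the plus strand. Its values were 33.2, 29.7 and 20.2 CPM in control mice 1, 2 and 3, and 32.9, 36.8 and 48.1 CPM in TDP-43iΔEC mice 1, 2 and 3. The lowest knockout mouse was level with the highest control mouse, so the groups overlapped. The log2 fold change was 0.48 (SE 0.36), with an interval of -0.35 to 1.3 that holds both a small decrease and an increase of more than 2-fold. Antisense Gm11978 overlaps 7.27% of its exon sequence.

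Ramp1 (ENSMUSG00000034353.15), the partner that makes CALCRL a receptor for calcitonin gene-related peptide, lies at chr1:91107540-91152918 on the plus strand. Control mice 1, 2 and 3 gave 77, 0 and 55 counts of it, and TDP-43iΔEC mice 1, 2 and 3 gave 0, 2 and 0. It did not pass the filter on low counts and was not fitted. A count of 0 in control mouse 2 allowed up to 0.0724 CPM, below the other control mice at 1.79 and 1.26 CPM, so that its detection varied within the control group itself.

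Over the ways of analysis, fitted sizes varied most for Ackr3 and Calcrl. Over 15 alternatives for each tested member, which included 6 that left out a mouse, 75 of 75 fitted log2 fold changes kept their sign. They ranged from 1.57 to 1.85 for Adm, from -1.87 to -1.18 for Calcrl, from -1.06 to -0.74 for Ramp2, from 0.26 to 0.68 for Ramp3 and from -2.17 to -1.36 for Ackr3. The kept signs are no independent support, because all alternatives reuse the same 6 libraries. For Adm, Calcrl, Ramp2 and Ackr3, whose groups did not overlap, leaving out a mouse could hardly reverse the sign. With any of the 6 mice left out, 0 members had an adjusted p under 0.05 in limma.

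**Figure D2:**
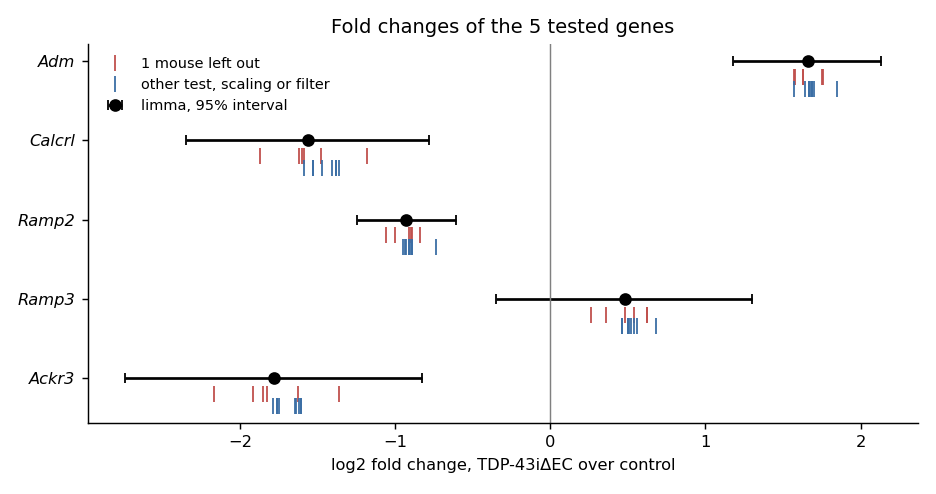
Log2 fold change of TDP-43iΔEC over control mice for the 5 tested genes. Black points are limma estimates with 95% intervals, red ticks are fits with 1 mouse left out, and blue ticks are other tests, scalings and filters. The interval of Ramp3, -0.35 to 1.3, is the one that spans 0. The intervals are not adjusted for the number of genes and come from the comparison that chose the set. The adjusted p in limma was 0.027 for Adm, 0.0559 for Ramp2, 0.224 for Calcrl, 0.27 for Ackr3 and 0.677 for Ramp3.

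Levels were compared between genes per kb of merged exon sequence. In control mice Ramp2 was the most abundant member, at 340 ± 29.5 CPM per kb, followed by Adm at 63.2 ± 7.98 CPM per kb (SD, n = 3), and these levels did not overlap. Ramp3 (19.9 ± 4.84), Ackr3 (19.1 ± 4.21) and Calcrl (18.4 ± 1.86 CPM per kb) came next, and the mice of each overlapped with those of its neighbour in this order. Ramp1 was last, at 0.304 ± 0.275 CPM per kb. In TDP-43iΔEC mice Adm was at 200 ± 30.5 and Ramp2 at 176 ± 23.9 CPM per kb, which overlapped on this length, although with each of the other lengths tried every Ramp2 value lay above every Adm value. Ramp3 followed alone at 28.3 ± 5.67 CPM per kb, above Calcrl (6.92 ± 2.74) and Ackr3 (6.09 ± 3.89 CPM per kb), which overlapped with each other.

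The length used set part of this order. Ackr3 has a merged exon length of 8105 bases and a canonical transcript of 3078 bases, and with the canonical length its level was 50.2 CPM per kb in control mice, and in TDP-43iΔEC mice its range overlapped with that of Ramp3. Ramp2 was at 648 CPM per kb of canonical transcript and at 537 CPM per kb when transcripts that reach Vps25 were left out of its length. The canonical Ramp2 transcript itself reads through into Vps25, so its length is not free of that neighbour. Ramp2 was first in control mice with each of these lengths, and with each but the merged exons it was also first in TDP-43iΔEC mice. There it was at 336 ± 45.6 CPM per kb against 233 ± 35.5 for Adm with canonical lengths, and at 278 ± 37.8 against 200 ± 30.5 for Adm without the transcripts that reach Vps25 (SD, n = 3).

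**Figure D3:**
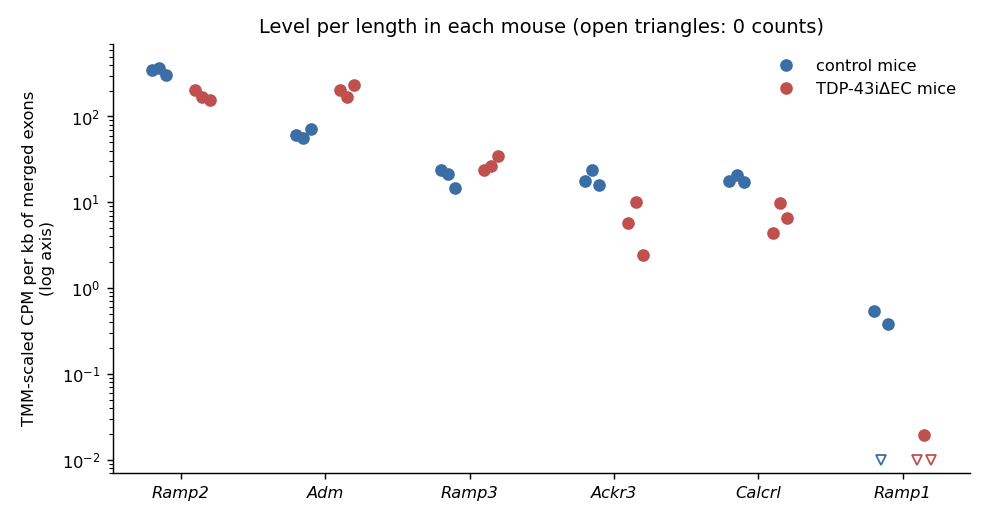
TMM-scaled CPM per kb of merged exons (log axis) in each control (blue) and TDP-43iΔEC (red) mouse, with genes ordered by their mean in control mice. Open triangles mark libraries with 0 counts, drawn at the foot of the axis. Ramp2 stands apart at the top in control mice. In TDP-43iΔEC mice Adm overlaps with it on this length and lies below it with the other lengths tried. The merged exons and the canonical transcript of Ramp2 both reach into Vps25.

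Ratios within a library do not depend on how libraries are scaled to each other. The ratio of Adm to Calcrl level per kb was 3.49, 2.74 and 4.18 in control mice 1, 2 and 3, against 46, 17.1 and 35.3 in TDP-43iΔEC mice 1, 2 and 3. Each knockout mouse thus had several times the ligand transcript per receptor transcript of any control mouse, 9.46-fold as a ratio of means. The ratio of Adm to Ramp2 went from 0.188 ± 0.0414 in control to 1.16 ± 0.272 in TDP-43iΔEC mice (SD, n = 3 per group). The absolute ratio depends on length, since with canonical lengths it was 0.115 ± 0.0252 and 0.705 ± 0.166, and without the Ramp2 transcripts that reach Vps25 it was 0.119 ± 0.0262 and 0.731 ± 0.172. The groups were apart with each length, because a length scales all 6 libraries alike. Adm was higher and Calcrl and Ramp2 were lower in each knockout mouse, so the separation of their ratios restates those values. Against Ramp3 the separation was smaller, with ratios of 2.56, 2.64 and 4.96 in the controls, against 8.55, 6.38 and 6.64 in TDP-43iΔEC mice 1, 2 and 3.

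Among the shares and ratios taken between receptor genes, those that involve Ramp3 separated the groups, and the others overlapped. The RAMP proteins share CALCRL as their partner, and Ramp2 made up 93.5%, 94.5% and 95.4% of the summed RAMP level per kb in control mice 1, 2 and 3, but 89.5%, 86.5% and 81.9% in TDP-43iΔEC mice 1, 2 and 3. The share of Ramp3 was 5.48 ± 0.942% in control and 14 ± 3.86% in TDP-43iΔEC mice (SD, n = 3 per group), and the groups did not overlap. The Ramp3 level itself overlapped between the groups, so this share also carries the lower Ramp2 level. Ramp2 thus remained the main RAMP transcript in all 6 mice. Ramp3 per Calcrl was 1.08 ± 0.261 in control and 4.46 ± 1.53 in TDP-43iΔEC mice, also apart. The ratios of Ramp2 to Calcrl and of Ackr3 to Calcrl overlapped between the groups, at 18.4 ± 1.24 against 29 ± 15.1 and 1.03 ± 0.121 against 0.899 ± 0.478.

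**Figure D4:**
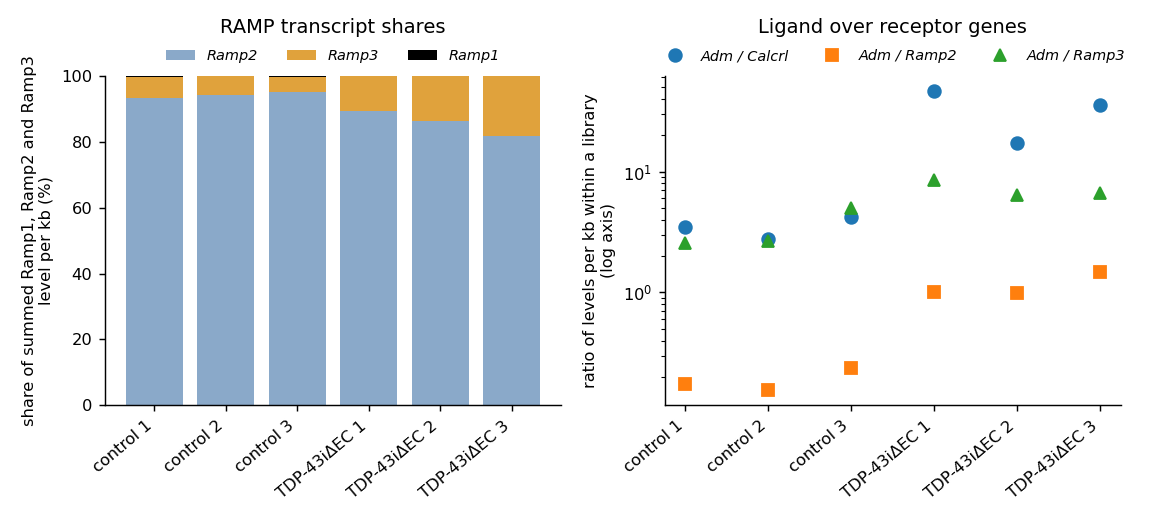
Left, share of Ramp1, Ramp2 and Ramp3 in their summed level per kb (%) in each library. Right, ratio of Adm to Calcrl (circles), Ramp2 (squares) and Ramp3 (triangles) level per kb within each library (log axis). The Ramp3 share and all 3 ligand ratios are higher in each TDP-43iΔEC mouse than in each control mouse. For Calcrl and Ramp2 this restates the higher Adm and lower receptor values.

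The profiles over the 6 libraries were compared with those of 6266 tested genes of at least 4 mean log2 CPM, by the root mean square (RMS) difference of mean-centred log2 CPM. The genes most like Adm were Cks1b and Mylk (0.197 each), Gimap4 (0.208), Litaf (0.212) and Gngt2 (0.221), whose log2 fold changes lay between 1.4 and 1.84. Those most like Ramp2 were Ergic3 (0.072), Ccdc28b (0.077), Slc52a2 (0.079), Serpinb6b (0.092) and Slc39a10 (0.102). Among the members, Calcrl was the nearest to Ramp2 (0.497) and Ramp3 the nearest to Adm (0.664). Each of the listed neighbours was nearer to its member than any other member was. This follows largely from taking the smallest distances among 6266 genes, and it does not show whether the members vary together.

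Genes around the receptor were taken as 8 lists by role, also chosen with earlier results of these data known. Of 105 genes in the table, 71 were tested, and 0 had an adjusted p under 0.05 in limma or in edgeR. At an unadjusted p under 0.05, 4 were higher and 7 lower in TDP-43iΔEC mice, against 4.26% and 5.0% of all tested genes. Their median log2 fold change was -0.04, beside -0.02 over all tested genes. In DESeq2, 3 of the 69 list genes given an adjusted p were under 0.05, namely Apln, Cxcl12 and Pde4b, beside 1.97% of all genes. As the lists were chosen with these data known, nothing is read from this count. The p values measure the spread between these mice, 3 per group.

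Other ligands of the family were all but absent. Calca and Calcb, which encode calcitonin gene-related peptides, Iapp and the calcitonin receptor gene Calcr had 0 counts in every library, and Adm2, the gene of the related peptide intermedin, had 45 counts in TDP-43iΔEC mouse 2 and 0 elsewhere. Crcp, which encodes a component linked to CALCRL signalling, was the 1 tested gene of the list, with a log2 fold change of 0.29 (SE 0.46; adjusted p = 0.856, limma). In this list, therefore, Adm was the ligand gene with substantial counts.

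In the chemokine axis of ACKR3, Cxcl12, the chemokine that this receptor takes up, was at 4560, 4070 and 2810 CPM in control mice 1, 2 and 3, against 2230, 2200 and 1840 CPM in TDP-43iΔEC mice 1, 2 and 3. The groups did not overlap, and the log2 fold change was -0.83 (SE 0.19), which missed the threshold (adjusted p = 0.25, limma). Cxcr4, its signalling receptor, was low, at 5.15 ± 4.13 and 1.03 ± 0.404 CPM (SD, n = 3 per group; adjusted p = 0.721, limma). Cxcl11 had 65 counts in TDP-43iΔEC mouse 2 and 0 elsewhere.

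Peptide processing and clearance genes gave 0 unadjusted calls among 10 tested, with a median log2 fold change of -0.21. Furin, a protease that cuts propeptides, was at 25.6 ± 6.34 and 14.8 ± 2.18 CPM in control and TDP-43iΔEC mice (SD, n = 3 per group; adjusted p = 0.603, limma). The related protease gene Pcsk5 had 0 counts in TDP-43iΔEC mice 1 and 3 and 332 in mouse 2, and its fit (adjusted p = 0.589, limma) rests on that spread.

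Signalling genes downstream had fold changes of both signs. Among 17 tested genes of cAMP coupling, 1 was higher and 3 were lower at an unadjusted p under 0.05, with a median log2 fold change of -0.2. Pde4b, a phosphodiesterase that breaks down cAMP, was at 99.8, 133 and 154 CPM in the controls and at 203, 244 and 317 CPM in TDP-43iΔEC mice 1, 2 and 3, a log2 fold change of 0.94 (SE 0.25; adjusted p = 0.308, limma). Gnas, the stimulatory G protein subunit that CALCRL couples to, had a log2 fold change of -0.4 (SE 0.13; adjusted p = 0.43, limma). Among 7 tested genes of the Epac and Rap1 arm, through which cAMP is known to tighten endothelial junctions, 1 was higher and 1 was lower at that unadjusted level. These were Rap1a, a small GTPase of this arm, with a log2 fold change of 0.93 (SE 0.3; adjusted p = 0.42, limma), and Rasip1, a Rap1 effector of ECs, with -1.07 (SE 0.38; adjusted p = 0.471, limma).

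Receptor trafficking genes numbered 10 tested, of which 1 was higher and 1 lower at an unadjusted p under 0.05, with a median of 0.38. Arrb1, an arrestin that binds activated receptors, was at 5.08, 0.749 and 1.33 CPM in the controls and at 11.8, 12.6 and 14.8 CPM in TDP-43iΔEC mice 1, 2 and 3 (adjusted p = 0.513, limma). Slc9a3r2, a scaffold protein gene, overlapped between the groups (log2 fold change -0.46, adjusted p = 0.527, limma).

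Known hypoxia and HIF target genes, other than Adm, had a median log2 fold change of -0.04 over 13 tested genes, with 0 higher and 1 lower at an unadjusted p under 0.05. The lower gene was Epas1, which encodes the EC-rich factor HIF-2α, at 1210 ± 106 in control and 914 ± 43.9 CPM in TDP-43iΔEC mice (SD, n = 3 per group; log2 fold change -0.39, adjusted p = 0.391, limma). Bnip3, a HIF target of the mitochondria, was at 83.4 ± 34.6 and 46.8 ± 4.51 CPM (adjusted p = 0.559, limma). The list holds regulators as well as targets, and its genes had fold changes of both signs. Whether HIFs have a part in the level of Adm was not tested.

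Of 11 tested genes of other vasoactive peptide systems, 1 was higher and 0 were lower at an unadjusted p under 0.05. Apln, the gene of the endothelial peptide apelin, was at 286, 180 and 233 CPM in the controls and at 356, 517 and 503 CPM in TDP-43iΔEC mice 1, 2 and 3. The groups did not overlap, with a log2 fold change of 0.95 (SE 0.23; adjusted p = 0.271, limma). Ednrb, an endothelin receptor gene, was counted 56 to 232 times per control library and 0, 39 and 0 times in TDP-43iΔEC mice 1, 2 and 3 (adjusted p = 0.541, limma).

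**Figure D5:**
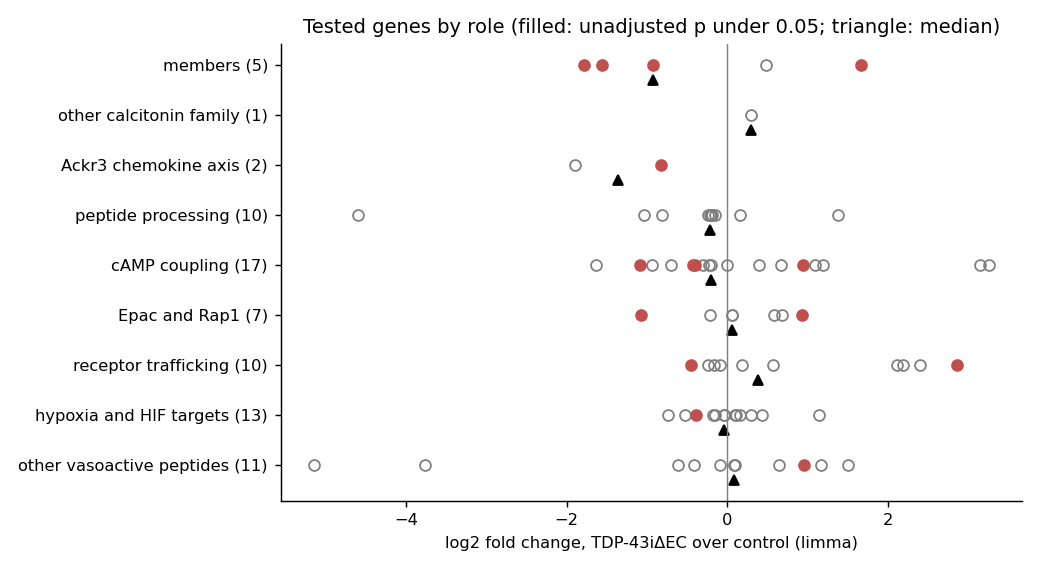
Log2 fold change (limma, TDP-43iΔEC over control mice) of each tested gene of the member set and of the 8 lists by role, with the number tested in parentheses. Filled points have an unadjusted p under 0.05, open points do not, and triangles are list medians. The member set was chosen by this comparison, and the lists have medians between -1.36 (2 genes of the Ackr3 chemokine axis) and 0.38.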

How the data were processed

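Gene counts of 6 libraries of sorted spinal cord ECs were used, 3 from control and 3 from TDP-43iΔEC mice, grouped by the labels. Alignment was to GRCm39 by STAR 2.7.8a, and the authors deposited estimated counts per gene (RSEM 1.3.0, GENCODE M30), whole numbers without scaling or filtering. Sequences came from the GRCm39 genome and positions from GENCODE M39, which holds 98.7% of the identifiers. Limma 3.58.1 (voom, R 4.3.3) was run with TMM factors and filterByExpr from edgeR 4.0.16, and Benjamini-Hochberg adjustment over 13107 genes at 0.05, after a test on simulated counts. CPM values use TMM-scaled library sizes. PCR copies were counted as reads, so the floor of 3 counts covers counting error only.

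The members and lists were chosen with earlier results of these data known. Named were the 6 members, Tardbp, genes overlapping a member, the 5 profiles nearest to Adm and to Ramp2, and from each list the 2 genes with the smallest unadjusted p where none passed. Adm2, Calca, Calcb, Iapp, Calcr and Cxcl11 were added after their values were seen.

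Alternatives were edgeR's quasi-likelihood test, DESeq2 1.42.0, DESeq2 size factors, library size only, 403 ribosomal RNA, hemoglobin and mitochondrial genes left out, no filter, at least 10 counts in every library, quality weights, a replicate block, each mouse left out, and other transcript lengths, of which the canonical length and Ramp2 without transcripts that reach Vps25 were chosen after seeing the data.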

Additional observations from a re-analysis of the deposited data

How the results depend on the processing

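The number of genes past the threshold was 18 and depended on the test: 0 with edgeR, 250 with DESeq2, 10 with library size only, 76 with no filter on low counts and 39 with at least 10 counts in every library. With 1 mouse left out it was 0 to 13, with 0 without TDP-43iΔEC mouse 1, 2 without mouse 3 and 3 without mouse 2, and 3, 10 and 13 without control mice 1, 2 and 3. The Adm call was lost in each of these 6 fits. With no filter, with at least 10 counts, or with the replicate block, 2 members passed, Adm and Ramp2. Library size only moved Ramp2 to -0.74 and the median of all tested genes from -0.02 to 0.18. Pathway list genes past the threshold numbered 0, but 3 with DESeq2, and 1 (Cxcl12) with the replicate block or without control mouse 3, so 0 to 1 with a mouse left out. The Ramp2 share, 94.4% in control and 86% in TDP-43iΔEC mice, was 96.8% and 91.7% with the longest transcript, 96.6% and 91.2% with the canonical one, and 96.4% and 90.6% without transcripts that reach Vps25. The causes were not tested. Same-numbered mice were not treated as pairs in the main fit. Their deviations correlated at -0.061, -0.111 and -0.021, which cannot show whether they shared a litter or a processing batch. The replicate block gave 22 genes. The design, 3 mice per group from low-input RNA, limits what can be resolved.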

Other observations

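Genes that share with Adm a long TG repeat in the 3′ UTR were described as a group. The 389 tested coding genes with a run of at least 30 bases in the 3′ UTR of the canonical transcript had a median log2 fold change of 0.029, beside -0.008 for all 11321 tested coding genes. Of these 389, 3.6% were higher and 6.68% lower in TDP-43iΔEC mice at an unadjusted p under 0.05, beside 4.58% and 5.38% of all coding genes. In limma 1 of them, Adm, was past the threshold in the higher direction and 0 in the lower. With a minimum run of 12 bases, 931 genes had a median of 0.024. These values are descriptions, and no binding was measured.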
